A study of Mus musculus with 4 samples.

Results

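Interferon regulatory factors were followed through 8 genes, Irf1, Irf2, Irf3, Irf4, Irf5, Irf7, Irf8 and Irf9, on arrays that compared CD8+ T cells raised in culture with CD8+ cells from the thymus. Every probe whose gene name on the array was one of these symbols or an earlier one (Isgf3g for Irf9, Icsbp1 for Irf8) was taken, which gave 12 probes of the 41174 different probes on the array. Irf1, Irf3, Irf8 and Irf9 had 2 probes each and the other genes 1; the 2 probes of Irf3 were designed on different transcript records, and the pairs of the other 3 genes each on the same one.

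All cells were from C57Bl/6 mice and none were treated. Thymic cells came from mice of 4 to 5 weeks. The in vitro-derived cells were grown for 35 days from Lin-Sca1+CD117+ cells of bone marrow of mice of 6 to 8 weeks on OP9-DL1, a stromal line that presents a Notch ligand, with Flt3 and IL7, and both kinds were sorted as CD8+ with high T cell receptor beta. Thymic RNA carried Cy3 and in vitro RNA carried Cy5 on all 4 arrays, in which 2 thymic preps were each paired with 2 in vitro preps. The labels name no separate animals or cultures behind a prep, and p-values therefore rest on how far these preps differ, which may be a technical spread. An effect of dye on a probe and a difference between the cells cannot be told apart here, and neither can fewer cells of a type and less RNA per cell.

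Interferon regulatory factors are transcription factors that share a DNA-binding domain recognising GAAA repeats. Irf3, Irf5 and Irf7 are switched on by kinases downstream of nucleic acid sensors and turn on interferon genes, whereas Irf9 joins STAT proteins in ISGF3, the complex that carries the type I interferon signal to its target genes. Irf1 and Irf2 compete for common sites and Irf4 and Irf8 act with partner factors in lymphoid and myeloid cells, Irf4 being induced by T cell receptor signals.

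All 10 of the CD8 T cell markers looked at (Cd3, Cd8 and receptor chains among them) were well above background in both channels on all 4 arrays. Of these 6 were lower in vitro and 3 were higher, with a median log2 difference of -0.51. With median scaling of the arrays 0 were lower and 8 higher, with a median of 0.43, where that of all tested probes was 0.37. The log2 of their summed level ran from 18.995 to 19.134 in thymic and from 18.716 to 18.936 in in vitro channels. Of 12 markers of OP9-like stroma, all 9 that were tested were higher in vitro (median log2 difference 2.89). A probe was tested if well above background on all 4 arrays in either channel. Only 5 of the 12 were so in the thymic channel, and the others tested passed through the in vitro channel, which favours a higher reading there. With both channels required 5 were tested, all higher (median 2.94). The log2 of the summed level of the 12 ran from 10.52 to 10.65 in thymic and from 13.45 to 13.83 in in vitro channels. Pdgfra was above background on no array and Dcn and Lum each on 1 array in 1 channel. Of 9 markers of plasmacytoid dendritic cells, which express much Irf7 and Irf8, Siglech and Clec12a were above background on no array. Of the 7 tested 4 were higher in vitro and 1, Pacsin1, was lower (-4.39). The summed log2 level was 14.18 to 14.29 in thymic and 16.10 to 16.28 in in vitro channels. The largest part of it was Pacsin1 in thymic (13.69) and Ly6d in in vitro channels (15.98). The other lists held fewer calls, for B cells (1 lower and 1 higher of 8 tested; 11.90 to 11.95 and 11.60 to 11.79), of conventional dendritic cells (0 lower and 2 higher of 8; 13.08 to 13.15 and 13.08 to 13.27) and of macrophages (2 lower and 2 higher of 8; 10.57 to 10.72 and 10.46 to 10.60), with the thymic range given first. With both channels required, no higher call was left for B cells (1 lower of 6) or macrophages (2 lower of 5). The 2 higher calls of conventional dendritic cells were H2-Aa and H2-Ab1. They fell to 0 with the background model fitted on all spots, and another probe of H2-Ab1 was called lower. The part of any of these cells in the results that follow was not tested.

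All 12 probes were well above background in both channels on all 4 arrays, so each could be tested. In limma's test over 27236 probes, with the Benjamini-Hochberg adjusted p held under 0.05, 8 of the 12 were lower in vitro and 1 was higher, against 25.6% of all probes called lower and 26.6% called higher. In all, 9 of 12 were called where 52.2% of all probes were. The median log2 difference of the 12 was -0.57, and that of all tested probes was 0.03. The size of these differences separated the family: Irf7 and Irf9 stood well below the rest, and the remaining probes lay between -0.77 and 0.33. Scaling by the median alone, in place of the intensity-dependent curve, centres each array on the median of all its spots in use, dim ones included. It raised the median of the tested probes to 0.37 and left 4 of the 12 called lower and 4 called higher. Of all 27236 probes, 3160 were then called lower and 16110 higher, and 70.8% were called in either direction. For the smaller differences the direction under both scalings is therefore given.

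**Figure D1:**
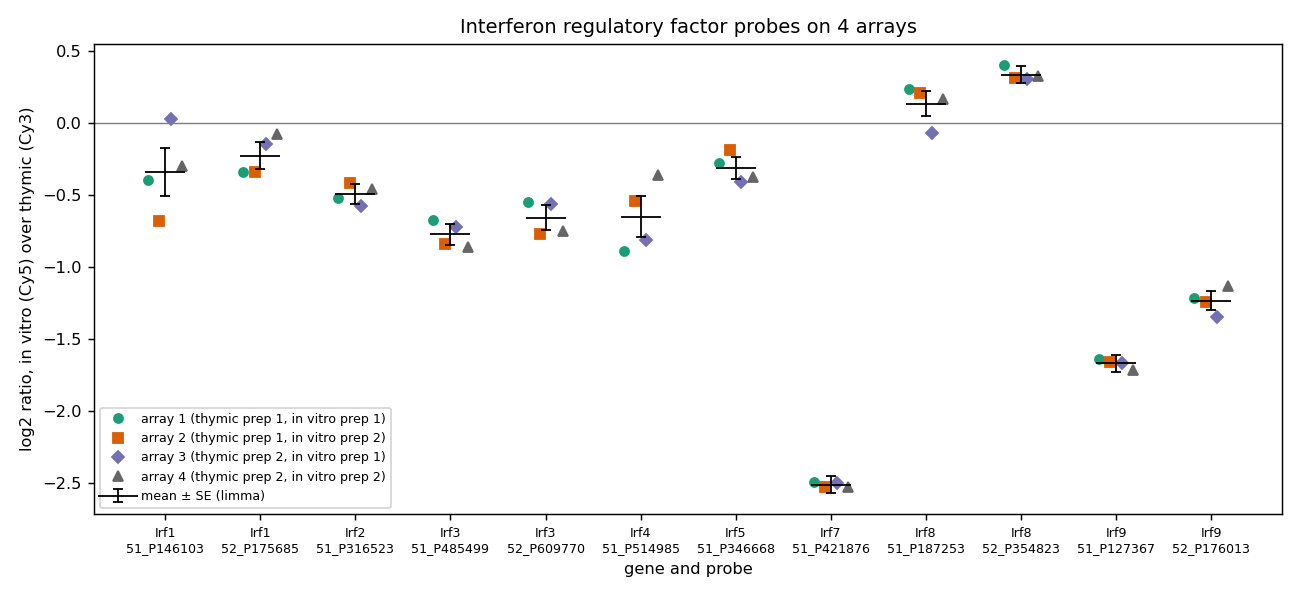
Each column is 1 of the 12 probes, the vertical axis is the log2 ratio of in vitro (Cy5) over thymic (Cy3) signal, symbols are the 4 arrays, and the bar is the mean with its SE from limma. Irf7 sits between -2.53 and -2.49 and the Irf9 probes between -1.71 and -1.14, while Irf1 probe A_51_P146103 spans from -0.68 to 0.02.

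Among the factors activated by nucleic acid sensing, Irf7, the amplifier of type I interferon production, differed most. Its probe A_51_P421876 gave log2 ratios of -2.49, -2.53, -2.50 and -2.52 on arrays 1 to 4. Its log2 level, the channel signal after scaling, was 11.28 and 11.29 in the thymic preps and 8.77 and 8.78 in the in vitro preps, so that the 4 preps formed 2 tight pairs. The difference of -2.51 ± 0.06 (SE, 2 preps of each kind) was a 5.69-fold lower level in vitro (adjusted p = 2.13e-05), and 1.06% of tested probes differed by as much in either direction. With median scaling it was -1.95 (adjusted p = 1.34e-05).

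Irf3, which is present in resting cells and acts first in the same route, was lower by less. Its probe A_51_P485499 read -0.68, -0.84, -0.72 and -0.86 on the 4 arrays, with log2 levels of 14.03 and 14.01 in the thymic and 13.35 and 13.14 in the in vitro preps. That was a difference of -0.77 ± 0.08 and a 1.71-fold lower level (adjusted p = 0.000858). The second probe, A_52_P609770, read -0.55, -0.77, -0.57 and -0.75, a difference of -0.66 ± 0.08 (adjusted p = 0.00228). Both probes were lower on each array, and both read lower against in vitro prep 2 (arrays 2 and 4) than against prep 1. With median scaling the first turned to 0.12 (adjusted p = 0.22) and the second shrank to -0.12 (adjusted p = 0.27), so neither was called there.

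Irf5, known mainly from myeloid and B cells, was read on a dim probe. Before scaling, the net signal of A_51_P346668 was 50.4 to 63.9 intensity units in the thymic channel and 65.2 to 93.8 in the in vitro channel. Its log2 ratios were -0.28, -0.19, -0.41 and -0.38, and its log2 levels 7.06 and 7.09 against 6.77 and 6.75. The difference of -0.31 ± 0.08 passed (adjusted p = 0.0223) and was -0.30 with median scaling (adjusted p = 0.0182). It no longer passed with the background model fitted on all spots (-0.23, adjusted p = 0.065). Keeping marked spots, which also fits that model on all spots, gave nearly the same (adjusted p = 0.0653). With Agilent's processed signals it was -0.81 (adjusted p = 0.0102).

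Irf9, the DNA-binding subunit of ISGF3, was lower on both of its probes. The brighter one, A_51_P127367, read -1.64, -1.66, -1.66 and -1.71 on the 4 arrays. Its log2 levels were 12.79 and 12.82 in the thymic preps and 11.13 and 11.14 in the in vitro preps. The difference was -1.67 ± 0.06, a 3.18-fold lower level (adjusted p = 5.07e-05). The dimmer probe, A_52_P176013, read -1.21, -1.24, -1.34 and -1.14, a difference of -1.23 ± 0.06 and 2.35-fold (adjusted p = 0.000133). Median scaling left both called, at -0.96 and -0.87. With Agilent's own processed signals, which carry no added offset, the brighter probe was at -1.72 and the dimmer at -1.71, against -1.68 and -1.43 with an offset of 16.

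Stat2, a partner of Irf9 in ISGF3, was lower as well. It read -0.79, -1.11, -0.84 and -1.08, a difference of -0.95 ± 0.10 (adjusted p = 0.00126), lower against in vitro prep 2 than against prep 1. With median scaling it was at -0.32 and still called.

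Irf1 is the activator and Irf2 the repressor that share sites. Irf1 on A_51_P146103 read -0.40, -0.68, 0.02 and -0.30, with log2 levels of 15.70 and 15.30 in the thymic preps and 15.27 and 15.05 in the in vitro preps. The thymic preps differed by 0.40 on the log2 scale, a gap that 0.889% of probes exceeded, and the lower thymic prep lay 0.03 above the higher in vitro prep. The difference of -0.34 ± 0.17 did not pass (adjusted p = 0.148). The second Irf1 probe, A_52_P175685, read -0.34, -0.34, -0.15 and -0.08, and its difference of -0.23 ± 0.09 did not pass (adjusted p = 0.0937). Here too the arrays of thymic prep 2 (3 and 4) were nearer to 0. Without thymic prep 1 the 2 probes were at -0.14 (adjusted p = 0.272) and -0.11 (adjusted p = 0.251), and without in vitro prep 2 the first was at -0.19 (adjusted p = 0.178). Without thymic prep 2 both were called lower (-0.54, adjusted p = 0.00351, and -0.34, adjusted p = 0.00788). The first was also called lower without in vitro prep 1 (-0.49, adjusted p = 0.0109) and the second without in vitro prep 2 (-0.25, adjusted p = 0.0185). With median scaling both were called higher, at 0.79 (adjusted p = 0.0018) and 0.38 (adjusted p = 0.00981). No direction for Irf1 thus held across the scalings.

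Irf2 read -0.52, -0.42, -0.58 and -0.46 on A_51_P316523, with log2 levels of 10.97 and 11.04 in the thymic and 10.43 and 10.59 in the in vitro preps. The difference of -0.49 ± 0.07 was a 1.41-fold lower level (adjusted p = 0.00298). With median scaling it turned to 0.12 and did not pass (adjusted p = 0.238).

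**Figure D2:**
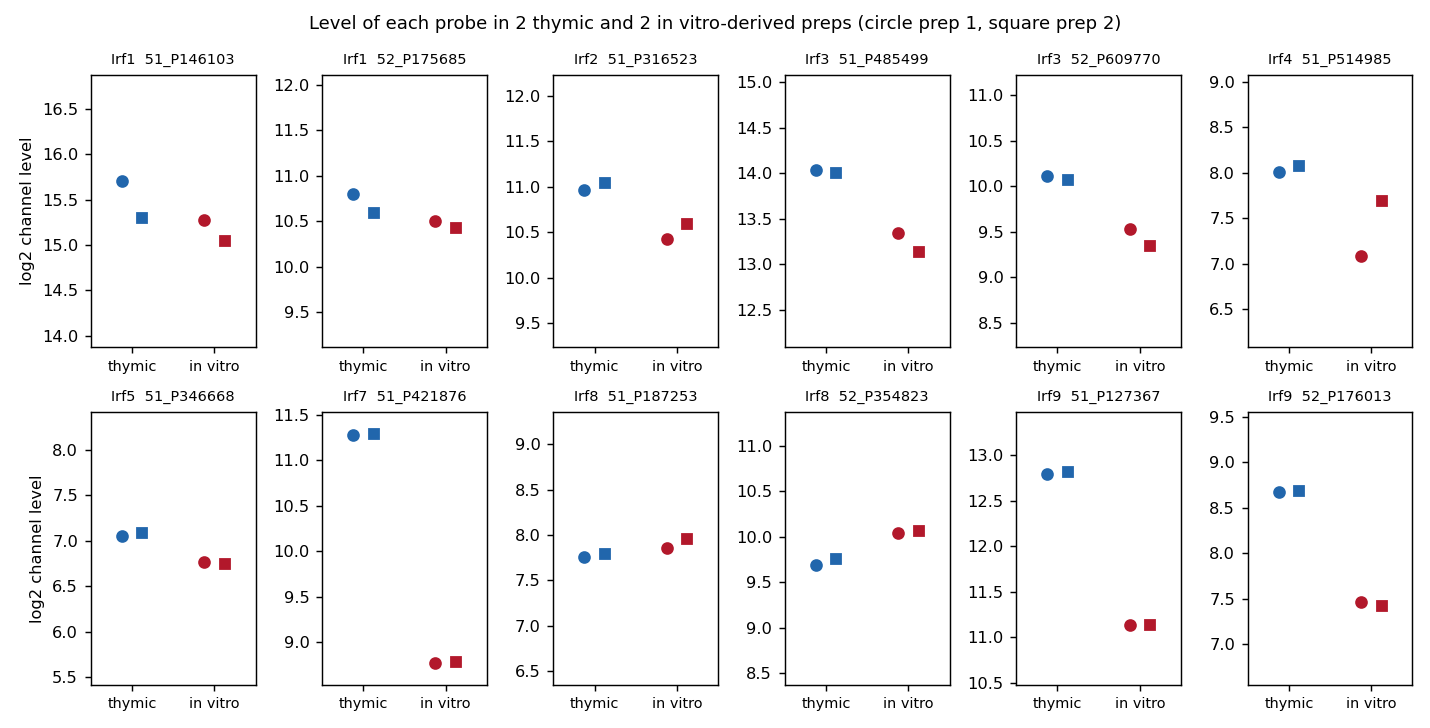
Each panel is 1 probe, the vertical axis is its log2 channel level over the same span of 3 units in every panel, blue points are the 2 thymic preps and red points the 2 in vitro-derived preps (circle prep 1, square prep 2). Irf7 drops from 11.3 to 8.8 with the preps of each kind together, whereas the in vitro preps of Irf4 and the thymic preps of Irf1 probe A_51_P146103 lie apart.

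Of the lymphoid pair, Irf4, which sets the strength of effector programmes after receptor signalling, was lower in vitro but split the in vitro preps. Its probe A_51_P514985 read -0.89, -0.54, -0.81 and -0.36, with log2 levels of 8.00 and 8.07 in the thymic preps, 7.08 in in vitro prep 1 and 7.69 in prep 2. In the array ratios in vitro prep 2 was 0.40 above prep 1, a gap exceeded by 4.85% of probes. The difference of -0.65 ± 0.14 passed (adjusted p = 0.0137). It was -0.45 without in vitro prep 1 and -0.85 without prep 2. The call was lost with median scaling (-0.36, adjusted p = 0.0865) and with the background model fitted on all spots (-0.51, adjusted p = 0.0567). Keeping marked spots, which also fits that model on all spots, gave the same adjusted p. Agilent's processed signals gave -1.04 (adjusted p = 0.0313).

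Irf8, a factor of myeloid, dendritic and B cells also induced in activated T cells, was the member with a call in the other direction. Probe A_52_P354823 read 0.40, 0.31, 0.30 and 0.32, with log2 levels of 9.68 and 9.75 in the thymic and 10.04 and 10.06 in the in vitro preps. The difference of 0.33 ± 0.06 was a 1.26-fold higher level in vitro (adjusted p = 0.00712). The other probe, A_51_P187253, read 0.23, 0.21, -0.07 and 0.16, and its difference of 0.13 ± 0.09 did not pass (adjusted p = 0.255). It was called higher without thymic prep 2 (0.22, adjusted p = 0.0412) and without in vitro prep 1 (0.19, adjusted p = 0.012), and stood at 0.04 without thymic prep 1. With median scaling both probes were called higher, at 0.88 and 0.45.

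The scanner's net signals before any dye scaling were compared as well. Cy5 exceeded Cy3 at 94.7% to 96.4% of tested probes, by a median of 2.36 to 2.76 times. Only the 3 probes of Irf7 and Irf9 were dimmer in Cy5, on every array: Cy5 over Cy3 was 0.386 to 0.439 for Irf7, 0.792 to 0.918 for Irf9 probe A_51_P127367 and 0.743 to 0.946 for A_52_P176013. The other 9 probes were brighter in Cy5, from 1.04 (Irf4 on array 3) to 3.63 (Irf8 on array 1). Irf8 on A_52_P354823, at 2.98 to 3.63, lay above the median of all probes on each array, and Irf3 on A_51_P485499, at 1.63 to 2.04, below it.

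**Figure D3:**
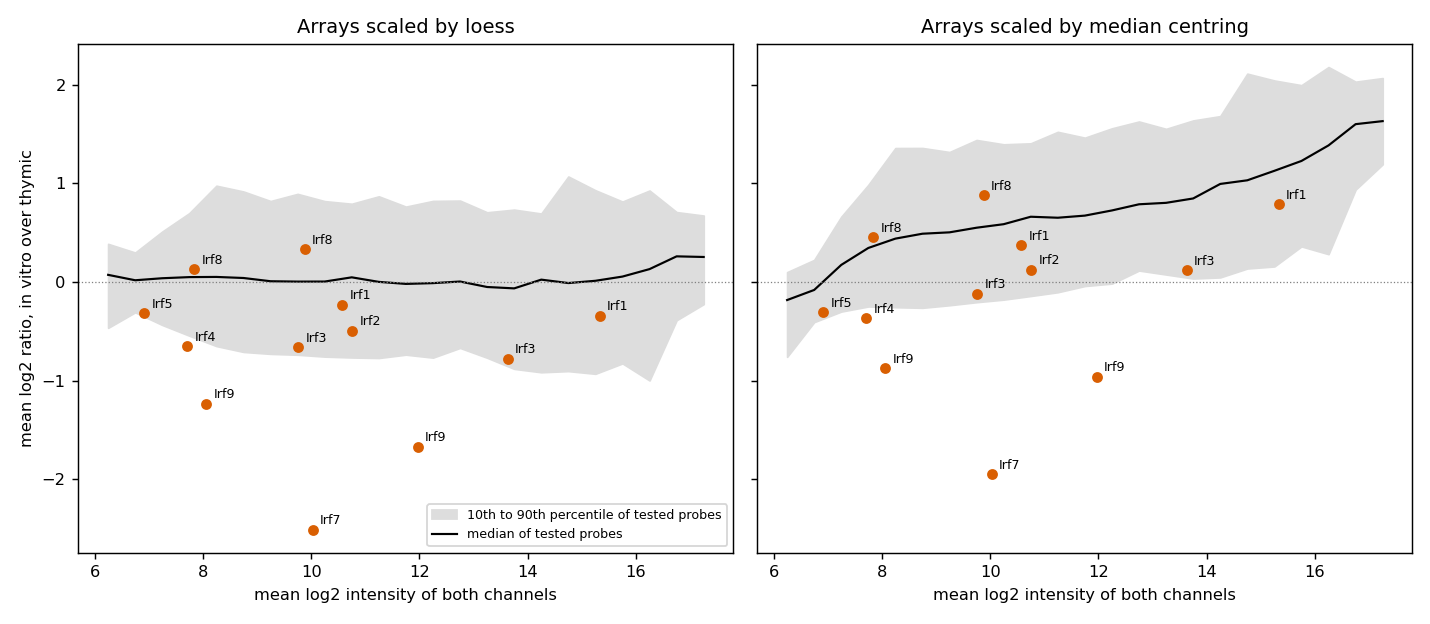
The horizontal axis is the mean log2 intensity of both channels and the vertical axis the mean log2 ratio over 4 arrays, with loess scaling on the left and median centring on the right; the line and the grey band are the median and the 10th to 90th percentile of tested probes in steps of 0.5. With median centring the running median climbs with intensity from -0.18 to 1.63, Irf7 and Irf9 stay far under it, and bright Irf1 and Irf3 probes lie above 0 but under the line.

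Measured from the tested probes' median of 0.37 under that scaling, Irf2 was at -0.25, the Irf3 probes at -0.25 and -0.49, Irf4 at -0.73, Irf5 at -0.67, Irf7 at -2.32 and the Irf9 probes at -1.33 and -1.24. The Irf1 probes were at 0.42 and 0.01 and the Irf8 probes at 0.08 and 0.51. Against the median of probes of like intensity, both Irf1 probes lay lower: 0.79 against 1.13 for A_51_P146103 and 0.38 against 0.66 for A_52_P175685. The dim Irf5 probe lay closer to such probes, at -0.30 against -0.08, than Irf4 did, at -0.36 against 0.35. Both Irf8 probes lay higher than such probes, at 0.45 against 0.35 and 0.88 against 0.55.

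The promoters of the factors were read for the sites through which interferon signals are known to act. RefSeq's windows on GRCm38.p6, from 250 bases before to 50 after a gene's start, gave 11 windows for the 8 genes. The core of the interferon-stimulated response element was searched as GAAANNGAAA and the gamma-activated site, bound by STAT dimers, as TTCNNNGAA, each on both strands; the second reads the same on both. The first was in 3.44% of 32851 windows of all genes and in 1 of the 11, and the second was in 8.3% of all windows and in 3 of the 11. The windows that hold a match are shown with the match in capitals, beside those of Irf7 and Irf9, the members with the largest differences, which hold neither.
Irf7, chr7:141266375-141266674, minus strand: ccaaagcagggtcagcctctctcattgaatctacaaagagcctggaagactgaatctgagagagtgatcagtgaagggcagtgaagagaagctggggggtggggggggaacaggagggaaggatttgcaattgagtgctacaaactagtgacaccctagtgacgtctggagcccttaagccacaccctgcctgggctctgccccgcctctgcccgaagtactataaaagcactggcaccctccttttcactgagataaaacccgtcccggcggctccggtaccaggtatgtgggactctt
Irf9, chr14:55603735-55604034, plus strand: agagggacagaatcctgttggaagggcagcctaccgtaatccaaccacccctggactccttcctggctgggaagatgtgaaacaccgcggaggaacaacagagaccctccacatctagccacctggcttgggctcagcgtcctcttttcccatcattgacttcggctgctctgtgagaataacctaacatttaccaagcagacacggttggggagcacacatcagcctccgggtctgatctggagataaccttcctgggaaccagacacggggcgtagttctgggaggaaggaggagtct
Irf9, chr14:55604329-55604628, plus strand: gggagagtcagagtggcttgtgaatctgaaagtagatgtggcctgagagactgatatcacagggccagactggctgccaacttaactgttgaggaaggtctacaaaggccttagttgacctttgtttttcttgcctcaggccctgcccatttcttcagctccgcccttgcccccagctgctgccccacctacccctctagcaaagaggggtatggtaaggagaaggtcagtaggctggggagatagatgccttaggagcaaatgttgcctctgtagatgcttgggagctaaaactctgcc
Irf1, chr11:53769764-53770063, plus strand: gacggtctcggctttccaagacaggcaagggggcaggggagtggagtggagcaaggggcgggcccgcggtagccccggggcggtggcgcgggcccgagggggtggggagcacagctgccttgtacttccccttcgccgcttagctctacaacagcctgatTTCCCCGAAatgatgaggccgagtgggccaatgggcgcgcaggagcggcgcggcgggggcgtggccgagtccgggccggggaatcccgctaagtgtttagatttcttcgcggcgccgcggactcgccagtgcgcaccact
Irf2, chr8:46739495-46739794, plus strand: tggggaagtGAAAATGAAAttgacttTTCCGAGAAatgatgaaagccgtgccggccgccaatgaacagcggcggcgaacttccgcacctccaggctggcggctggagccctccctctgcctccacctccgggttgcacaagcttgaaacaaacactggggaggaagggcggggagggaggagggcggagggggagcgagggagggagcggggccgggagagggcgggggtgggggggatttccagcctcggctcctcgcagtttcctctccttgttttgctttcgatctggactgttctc
Irf8, chr8:120736108-120736407, plus strand: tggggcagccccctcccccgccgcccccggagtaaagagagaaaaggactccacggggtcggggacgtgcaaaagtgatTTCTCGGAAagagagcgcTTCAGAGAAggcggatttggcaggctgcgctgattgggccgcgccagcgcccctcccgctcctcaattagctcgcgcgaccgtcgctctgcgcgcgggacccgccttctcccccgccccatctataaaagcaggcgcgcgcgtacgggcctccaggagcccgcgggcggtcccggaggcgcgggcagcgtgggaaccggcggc
The gamma-activated match of Irf1 begins 90 bases before the start site. In Irf2 the response element match begins 241 and the gamma-activated match 224 bases before it, and Irf8 holds a pair of gamma-activated matches at 171 and 153 bases before its start. The matches do not overlap. These letters are a description of the windows, in which Irf1, Irf2 and Irf8, the holders of a match, were uncalled, lower and higher on their brightest probes. By comparison, the response element core was in 12 of 24 windows (50%) of the ISGF3 target genes described next and in 7 of 16 (43.8%) of the Irf1 targets.

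Around the factors, 8 lists of genes were followed, each gene through its brightest tested probe. Of 137 listed genes 119 were tested, and 80 were called lower and 21 higher in vitro. Over all 19162 genes tested 25.3% were called lower and 26.7% higher. With median scaling the listed genes split into 49 lower and 51 higher, while the share of all calls that were higher went from 51.0% to 83.6%. The median of all tested probes was then 0.37, beside which the lists' medians under that scaling are to be read.

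Upstream of the factors, 16 of 20 tested sensors, adaptors and kinases were lower and 2 higher, with a median of -0.71 (0.025 with median scaling). The largest decreases were in Tlr7, the endosomal receptor for single-stranded RNA (-3.20 ± 0.09, adjusted p = 3.21e-05), and Dhx58, a helicase of the RIG-I family (-2.64 ± 0.07). Traf6, the ubiquitin ligase downstream of Toll-like receptors (0.55 ± 0.07), and Mb21d1, the DNA sensor cGAS (0.49 ± 0.08, a call lost with the background model fitted on all spots, adjusted p = 0.0509), were higher. Of their probes, 2 of 3 for Traf6 and 1 of 2 for Mb21d1 were called.

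Among the receptors for interferons and their JAK-STAT route, 7 of 9 were lower and 1 higher, with a median of -0.79, or -0.16 with median scaling. Ifngr1, the ligand-binding chain of the interferon gamma receptor, was 8.57-fold higher in vitro: the arrays read 2.79, 3.40, 2.88 and 3.32, a difference of 3.10 ± 0.17 (adjusted p = 0.000162), higher against in vitro prep 2. Its partner chain Ifngr2 read -0.69, -1.04, -0.72 and -1.11, a difference of -0.89 ± 0.13 (adjusted p = 0.00336) that was not called with median scaling (-0.22). The 2 chains of 1 receptor thus moved in opposite directions on every array. Of the type I receptor chains, Ifnar1 was at -0.44 ± 0.08 (adjusted p = 0.00609, but called higher at 0.27 with median scaling), and Ifnar2 at 0.12 ± 0.09 did not pass (adjusted p = 0.335), though its other probe was called higher. The kinase Jak1 was at -1.29 ± 0.11 (adjusted p = 0.000537) and Tyk2 at -0.79 ± 0.08 (adjusted p = 0.000944), calls lost with median scaling (-0.25 and -0.16). Jak2 passed narrowly, on 1 of its 2 probes, at -0.27 ± 0.09 (adjusted p = 0.0485) and was called higher with median scaling (0.44). The call was lost with an offset of 16 (adjusted p = 0.0643), with Agilent's processed signals (0.0825) and with no filter (0.0529). Without thymic prep 1 the difference was -0.21.

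Of the genes bound by ISGF3, 26 of 26 tested were lower, with a median of -1.67. Ifi27l2a, an interferon-induced gene of mitochondria, read -4.86, -4.72, -4.85 and -4.74 (-4.79 ± 0.07, 27.7-fold, adjusted p = 1.38e-05). Ifit1, which binds foreign RNA ends, read -4.26, -4.51, -4.32 and -4.49 (-4.39 ± 0.09, adjusted p = 1.79e-05). With median scaling 23 of the 26 were lower and 1 higher, with a median of -1.04. These are textbook targets, gathered when large decreases of some of them were already known.

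The genes that Irf1 is known to drive, in antigen presentation and the guanylate-binding families, were lower in 12 of 18 and higher in 4, with a median of -0.59. Irgm1 (-1.40 ± 0.06) and Igtp (-1.37 ± 0.08), GTPases of cell-autonomous immunity, were the lowest. Casp1, the inflammasome protease, was 5.43-fold higher (2.44 ± 0.06, adjusted p = 2.38e-05), and Tap2, a chain of the peptide transporter, was higher at 0.55 ± 0.13. With median scaling the list had 6 lower and 9 higher and a median of 0.18, where the median of all tested probes was 0.37.

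Interferon genes themselves were mostly out of reach. Of 10 on the array, 6 were above background on no array in either channel, Ifnb1 among them. Of the 4 tested, Ifng was lower (-1.85 ± 0.24, adjusted p = 0.00224): its arrays read -2.18, -2.27, -1.46 and -1.51, less far from 0 with thymic prep 2 than with prep 1.

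Genes linked to Irf4 in activated T cells went both ways, with 7 of 17 lower, 8 higher and a median of 0.31 (0.98 with median scaling, and 0.04 without in vitro prep 2). Ctla4, the inhibitory receptor (3.54 ± 0.10), and Il2ra, the interleukin 2 receptor alpha chain (3.44 ± 0.26), were the highest. Id2, the inhibitor of E proteins (-2.74 ± 0.08), and Eomes, the T-box factor of memory CD8 cells (-2.58 ± 0.09), were the lowest.

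Partners and cofactors of the family were lower in 7 of 13 and higher in 2, with a median of -0.27 (0.32 with median scaling, and -0.17 without in vitro prep 1). Irf2bpl was at -2.38 ± 0.09, and Tcf3, the E protein E2A, at 0.54 ± 0.06 and Batf3, a partner of Irf4 and Irf8, at 0.40 ± 0.08 were higher, the last not called with the background model fitted on all spots (adjusted p = 0.11). Spi1, the classical partner of Irf4 and Irf8 outside T cells, was above background on no array. Of 14 negative regulators 6 were lower and 4 higher, with a median of -0.10 that was 0.66 with median scaling and -0.22 without thymic prep 2. Usp18, which silences the type I receptor and is itself an ISGF3 target, was at -2.53 ± 0.10, and Trim21, which ubiquitinates Irf3, at -0.999 ± 0.094. Socs1, an inhibitor of JAK kinases, was higher at 0.86 ± 0.18, and Pias1, a restraint on STAT signalling, at 0.77 ± 0.10. Only 1 of the 2 Pias1 probes was called, and their mean was 0.41.

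**Figure D4:**
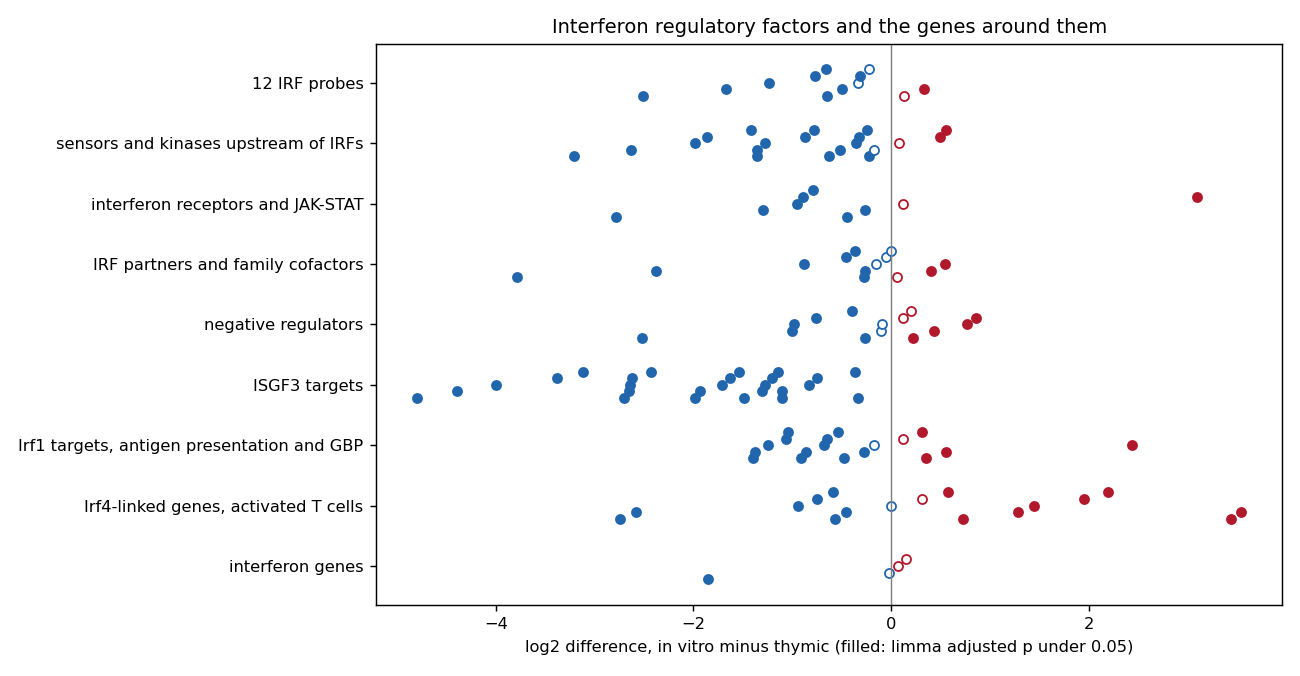
Each point is 1 of the 12 factor probes (top row) or 1 tested gene of a list through its brightest probe, and the horizontal axis is the log2 difference in vitro minus thymic; filled points had a limma adjusted p under 0.05. ISGF3 targets lie wholly to the left of 0, from -4.79 upwards, while Ifngr1 at 3.10 stands apart from the other receptor genes.

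The genes whose 4 array ratios lay nearest to those of Irf7, by Euclidean distance over all genes tested, were Phf11a (distance 0.08), a gene of the interferon-responsive Phf11 family, Prf1, which encodes perforin (0.08), and Dhrs7, a short-chain dehydrogenase (0.14). Their log2 differences were -2.51, -2.49 and -2.51. The likeness rests on 4 arrays that share preps.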

How the data were processed

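Total RNA of 2 thymic and 2 in vitro-derived preps was amplified and labelled, and hybridised as 4 pairs on 1 slide scanned once. Per the file headers, the authors deposited Agilent Feature Extraction 9.5.1.1 output: spot and background intensity per channel, flags of other kinds (well above background, saturated, outlier), and a log10 ratio; the series' value table is that log10 ratio (99.6% of probes equal within 1e-04). No build is stated for the probes' coordinates, and none are printed.

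Spots marked as outliers and controls were left out. Intensities were background-corrected (normexp, offset 50) and scaled by loess within arrays in limma 3.58.1 (R 4.3.3); spots of a probe were averaged. Probes well above background on all 4 arrays in a channel were tested (27236), and 63.7% to 70.9% of spots were well above background per channel. The 4 log2 ratios were turned into 1 value per prep, fitted with 2 residual degrees of freedom (lmFit, eBayes) and adjusted by Benjamini-Hochberg over all probes. An exact permutation of 2 against 2 preps cannot go below p = 0.333, so none was used. The fit was tested on simulated data. These were simulated log2 ratios with a far smaller share of changed probes than was called here. Background correction and scaling were not part of that test. Channel levels are log2 signals after loess and Aquantile scaling, comparable within a probe only. Array names were updated through RefSeq accessions (22951 probes matched).

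Every factor probe is reported; for each list the 2 genes with the largest called difference in each direction are named, and the receptor list in full, except for listed genes whose values are not reported here. Members, lists and tests were chosen with earlier results of these data known. Alternatives were other background models, scalings, filters and the leaving out of each prep. Figures were drawn with matplotlib 3.10.9.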

Additional observations from a re-analysis of the deposited data

How the results depend on the processing

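The 3 counts of calls (over all probes, the 12 factor probes and the listed genes) stayed within 1.5 times under each of 14 alternatives, and the listed genes also as a mean over probes. Leaving out 1 prep at a time, which makes up part of the 14, is a fit on 2 arrays that share a prep. Its p-values hold no spread between preps of the kind left with 1 prep, so its calls are not like those of the main fit. Over 12 factor probes and 14 alternatives, 149 of 168 values kept their direction and their side of the threshold. Some alternatives could change little or nothing. Aquantile scaling between arrays leaves the ratios as they are, and the filters alter no ratio. The series' value table gives nearly the same ratios as Agilent's processed signals, and keeping marked spots also fits the background model on all spots. Of the other values, 6 lost and 9 gained a call, and 4 reversed, each with median centring: Irf1 (0.79 and 0.38), Irf2 (0.12) and Irf3 on A_51_P485499 (0.12). Irf7, both Irf9 probes and Irf8 on A_52_P354823 kept their call in all 14. For that Irf8 probe the call was narrow at its weakest, with a limma adjusted p of up to 0.0496. The highest was 0.0118 for the Irf9 probes and 0.00139 for Irf7. Median centring also reversed Ifnar1 (0.27), Jak2 (0.44) and the medians of the sensors (0.025), the Irf1 targets (0.18), the partners (0.32), the CD8 T cell markers (0.43) and the negative regulators (0.66). Reversed means a change of sign only. The median of all tested probes was 0.37 under that scaling. Ifnar1, the sensors, the Irf1 targets and the partners lay below it, and Jak2, the CD8 T cell markers and the negative regulators above it. The cause was not tested. No paired analysis was possible because the prep numbers cross, each thymic prep meeting each in vitro prep. Signal over background limits Irf5 and the interferon genes most.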
